A study of Homo sapiens with 9 samples.

Results

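The BCL2 family genes BIK, BAD, BMF, BBC3, PMAIP1, BCL2L11, BAX, BAK1, BCL2L1 and MCL1 were followed in irradiated KYSE180 cells with lowered EZH2. They were taken by symbol, and all 10 were found among the 57905 Ensembl genes of the count table and passed the filter on low counts, as 13252 genes did. KYSE180 is a line labelled as esophageal squamous cell carcinoma, and the series title calls it KDM6A-deficient. RNA was sequenced in 9 libraries of 3 groups: cells with the EZH2 hairpin shEZH2#1, cells with a second EZH2 hairpin, shEZH2#3, and cells with the luciferase hairpin shluc, with 3 libraries in each group. Cells of every group had received 6 Gy of ionizing radiation, and no unirradiated sample was analysed here. The genotype label of the EZH2 hairpin libraries says knockout and that of shluc says WT, whereas titles and design describe hairpins, so the groups were taken from the titles.

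Proteins of this family decide whether the outer mitochondrial membrane is opened during apoptosis. BAX and BAK1 are the effectors that build the pores through which cytochrome c escapes. Pro-survival members such as BCL2L1 (BCL-XL) and MCL1 hold the effectors in check. BH3-only proteins sense damage or stress and either neutralise the pro-survival members or activate the effectors directly. Much of this control is exerted on the proteins, by phosphorylation, degradation and binding, which RNA counts do not show.

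Library totals ran between 14958011 and 16946226 estimated counts in shEZH2#1, 18366510 and 21152006 in shEZH2#3, and 18563879 and 19508444 in shluc. EZH2, the targeted gene, averaged 10.1 CPM with shEZH2#1 and 9.94 CPM with shEZH2#3, against 19.3 CPM in shluc (CPM, counts scaled by library total and TMM factor), and its log2 fold change was -0.94 ± 0.18 for shEZH2#1 (SE, edgeR adjusted p = 0.00163) and -0.96 ± 0.18 for shEZH2#3 (adjusted p = 0.000433). KDM6A was counted at 3.14 to 3.9 CPM with shEZH2#1, 2.82 to 3.89 CPM with shEZH2#3 and 3.26 to 4.75 CPM in shluc, and its RNA does not show whether protein is made. Markers of cell types, given without TMM factors, went partly against the label. Of 10 squamous epithelial markers KRT17 stood at 919.7 to 1537 CPM and PERP at 42.3 to 102 CPM. CDH1 had 1.94 to 7.08 CPM and EPCAM 0.54 to 4.665 CPM. KRT5, KRT14, KRT6A, TP63, SOX2 and DSG3 stayed at or below 1.16 CPM in every library. Summed squamous markers were 1413 to 1611 CPM in shEZH2#1, 965 to 1193 CPM in shEZH2#3 and 1388 to 1560 CPM in shluc. Of 6 fibroblast markers COL1A2 was at 0 throughout and DCN reached 30.5 CPM, with sums of 49 to 65.6 CPM in shEZH2#1, 65.7 to 105 CPM in shEZH2#3 and 75.4 to 78.8 CPM in shluc. Of 6 leukocyte markers PTPRC, CD3E and MS4A1 were at 0 throughout, with sums of 16 to 21.4 CPM in shEZH2#1, 22.6 to 25.9 CPM in shEZH2#3 and 20.8 to 27.6 CPM in shluc. Of 4 endothelial markers KDR was at 0 throughout and CDH5 reached 27.2 CPM, with sums of 7.69 to 8.9 CPM in shEZH2#1, 25.2 to 28.2 CPM in shEZH2#3 and 15.8 to 26.3 CPM in shluc. The part of these genes in the results below was not tested. Compared with shluc, transcripts rich in G and C were relatively more abundant in the EZH2 hairpin libraries. The rank correlation across genes of GC content with level relative to the gene's mean was -0.25 to 0.26 in shEZH2#1, 0.39 to 0.65 in shEZH2#3 and -0.69 to -0.40 in shluc. The groups thus do not overlap in this trend, and no label names a batch, so the fold changes of the members are also given after a correction for GC content and transcript length. With it EZH2 stayed called, at -0.74 ± 0.15 with shEZH2#1 (adjusted p = 0.00359) and -0.58 ± 0.15 for shEZH2#3 (adjusted p = 0.0111).

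Of the 10 members, 6 rose with both hairpins: the BH3-only genes BIK, BAD, BMF and BBC3 and the effectors BAX and BAK1. With shEZH2#1 these were the only calls, 6 of 10 higher and 0 lower, while among all tested genes 19% were called, 11.2% higher and 7.89% lower. Those 2523 genes became 1159 when replicate 3 of shEZH2#1 was left out, 1344 when its replicate 2 was, and 1550 when replicate 2 of shluc was, and the member count was 6 each time. With shEZH2#3, 7 were called higher and 1 lower, while 44.2% of all tested genes were called, 24.4% higher and 19.8% lower. Among all tested genes 7.99% were called higher with both hairpins and 3.26% lower with both, against 6 and 0 of the 10 members. The hairpins share the 3 shluc libraries, so their fold changes are not independent of each other. All 6 knockdown libraries lay above all 3 shluc libraries for the same 6 members, which was so for 12% of all tested genes. Since the members were chosen with earlier results of these data known, these comparisons with all tested genes are no test of the family. The members had median log2 fold changes of 0.85 with shEZH2#1 and of 0.84 with shEZH2#3, beside -0.07 (shEZH2#1) and -0.01 (shEZH2#3) for all tested genes. PMAIP1 and BCL2L11 passed with neither hairpin, and neither pro-survival member was called with shEZH2#1, while with shEZH2#3 BCL2L1 rose and MCL1 fell. These are bulk RNA values, in which fewer cells carrying a transcript and less of it per cell cannot be told apart. Whether replicates came from separate cultures is not labelled; p-values therefore refer to the spread among these 9 libraries, part of which may be technical.

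**Figure D1:**
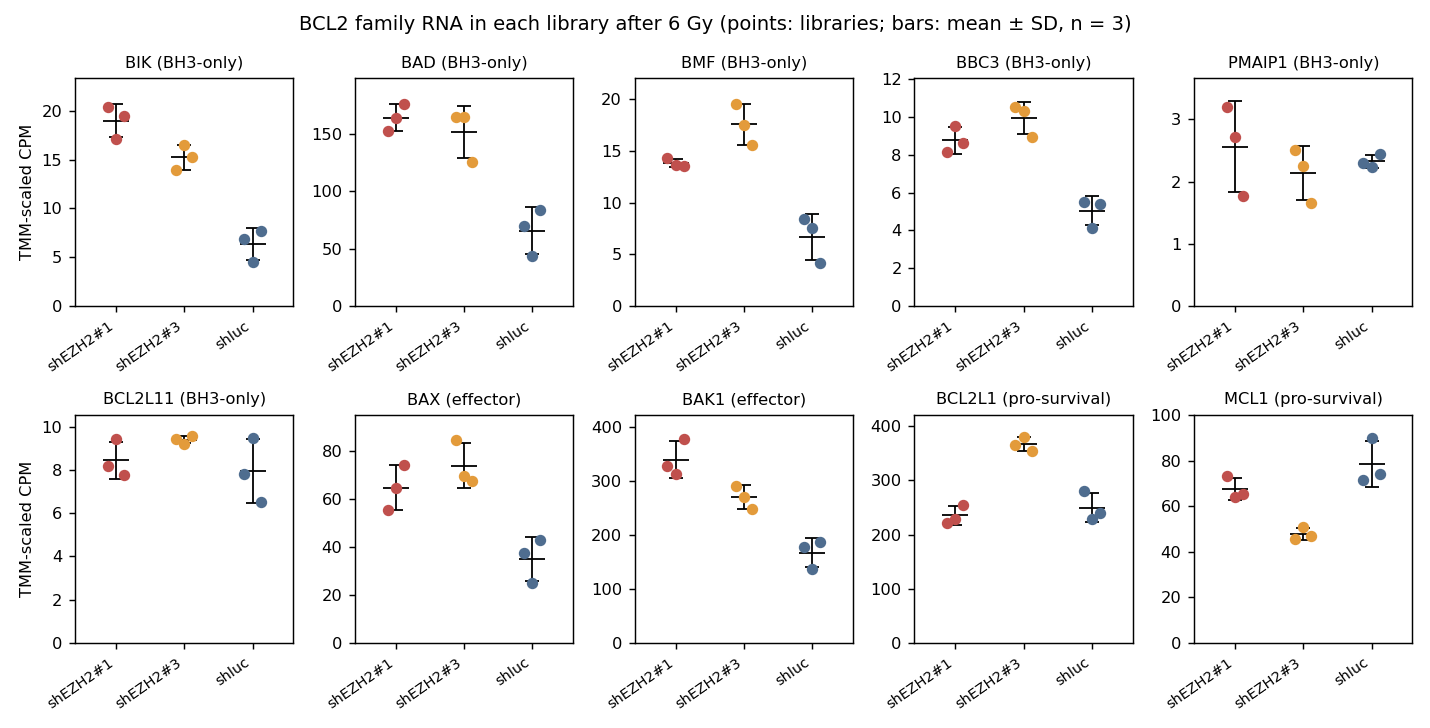
TMM-scaled CPM of the 10 members in each library (points, replicates 1 to 3 from left to right) by group, with mean and SD (n = 3) as bars. For BIK, BAD, BMF, BBC3, BAX and BAK1 every library of shEZH2#1 and shEZH2#3 lies above every shluc library, whereas BCL2L1 is set apart in shEZH2#3 by high values and MCL1 by low ones.

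BIK (ENSG00000100290, chromosome 22, 43110748 to 43129712, plus strand, GRCh38) encodes a BH3-only protein found largely at the endoplasmic reticulum. It stood at 20.4, 17.1 and 19.5 CPM in shEZH2#1 libraries and at 13.9, 16.5 and 15.3 CPM in shEZH2#3 libraries, against 6.86, 4.51 and 7.71 CPM in shluc libraries. No knockdown library came near the shluc range, and the lowest of shEZH2#1 was above the highest of shEZH2#3. BIK rose 2.99-fold with shEZH2#1 (log2 fold change 1.58 ± 0.19, edgeR adjusted p = 4.33e-05) and 2.4-fold with shEZH2#3 (1.26 ± 0.19, adjusted p = 7.35e-05). After the GC and length correction the log2 fold change was 1.28 ± 0.16 for shEZH2#1 (adjusted p = 0.00019) and 0.72 ± 0.16 for shEZH2#3 (adjusted p = 0.00576), and both calls remained. Between the hairpins BIK had a log2 difference of 0.32 ± 0.19 (adjusted p = 0.221), and 0.56 ± 0.16 (adjusted p = 0.016) with the correction, higher in shEZH2#1.

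BAD (ENSG00000002330, chromosome 11, 64269830 to 64284704, minus strand) encodes a BH3-only protein that survival signalling keeps inactive through phosphorylation. Its values were 152, 163 and 176 CPM in shEZH2#1 libraries and 164, 164 and 125 CPM in shEZH2#3 libraries, against 69.9, 43.7 and 83.4 CPM in shluc libraries. The knockdown libraries lay above the shluc range throughout, and the hairpins overlapped. BAD rose 2.5-fold with shEZH2#1 (log2 fold change 1.32 ± 0.19, adjusted p = 0.000222) and 2.31-fold with shEZH2#3 (1.21 ± 0.19, adjusted p = 0.00012). Its transcript is among the most GC-rich, with 66.3% GC and 97.4% of tested genes below it, and the correction left 0.75 ± 0.09 with shEZH2#1 (adjusted p = 0.000127) and 0.44 ± 0.09 for shEZH2#3 (adjusted p = 0.00301). BAD also shares 404 exonic bases with GPR137 on the opposite strand, and its counts carried decimals in all 9 libraries. Since the strand setting of the counting is not given, reads of these genes may not be fully separated. GPR137 itself had 0.34 ± 0.17 (adjusted p = 0.177) with shEZH2#1 and 0.84 ± 0.17 (adjusted p = 0.000749) with shEZH2#3. With the correction GPR137 had -0.13 ± 0.11 for shEZH2#1 (adjusted p = 0.472) and 0.18 ± 0.11 for shEZH2#3 (adjusted p = 0.262), so that call was lost.

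BMF (ENSG00000104081, chromosome 15, 40087890 to 40108892, minus strand) encodes a BH3-only protein that binds a dynein light chain of the myosin V motor. The 3 shEZH2#1 libraries had 14.3, 13.7 and 13.6 CPM and the 3 shEZH2#3 libraries 19.6, 17.5 and 15.6 CPM, against 8.43, 7.54 and 4.22 CPM in shluc. All shEZH2#3 libraries were above all shEZH2#1 libraries, and these above all of shluc. BMF rose 2.06-fold with shEZH2#1 (log2 fold change 1.04 ± 0.21, adjusted p = 0.00208) and 2.6-fold with shEZH2#3 (1.38 ± 0.21, adjusted p = 6.48e-05), the largest rise of a member with that hairpin. It changed least on correction for GC content and length among the 6 risers, to 1.05 ± 0.19 with shEZH2#1 (adjusted p = 0.00174) and 1.14 ± 0.18 for shEZH2#3 (adjusted p = 0.000616). The difference between the hairpins, -0.34 ± 0.20, did not pass the test (adjusted p = 0.229).

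BBC3 (ENSG00000105327, chromosome 19, 47220822 to 47232766, minus strand) encodes PUMA, a BH3-only protein induced by DNA damage. It had 8.17, 9.54 and 8.6 CPM in shEZH2#1 libraries and 10.5, 10.3 and 8.95 CPM in shEZH2#3 libraries, against 5.53, 4.15 and 5.41 CPM in shluc libraries. The EZH2 hairpin libraries did not overlap with shluc. Its transcript is the most GC-rich of the members: 99.5% of tested genes had less GC than its 69.7%. The log2 fold changes were 0.80 ± 0.19 (adjusted p = 0.00586) with shEZH2#1 and 0.98 ± 0.19 (adjusted p = 0.000461) with shEZH2#3. After the correction they were 0.23 ± 0.15 with shEZH2#1 (adjusted p = 0.329) and 0.24 ± 0.15 for shEZH2#3 (adjusted p = 0.275), and neither passed.

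PMAIP1 and BCL2L11, the remaining BH3-only genes, did not pass with either hairpin. PMAIP1 (ENSG00000141682, chromosome 18, 59899948 to 59904306, plus strand) encodes NOXA, which binds MCL1, and it was the lowest member, with 3.21, 2.72 and 1.76 CPM in shEZH2#1, 2.52, 2.25 and 1.66 CPM in shEZH2#3 and 2.3, 2.23 and 2.44 CPM in shluc. Its groups overlapped, and its log2 fold changes of 0.15 ± 0.30 with shEZH2#1 (adjusted p = 0.767) and -0.12 ± 0.30 for shEZH2#3 (adjusted p = 0.76) carry the widest errors of the 10 members. The corrected values were 0.34 ± 0.25 for shEZH2#1 (adjusted p = 0.409) and 0.41 ± 0.26 for shEZH2#3 (adjusted p = 0.276), so the sign with shEZH2#3 turned without a call. BCL2L11 (ENSG00000153094, chromosome 2, 111119378 to 111168447, plus strand) encodes BIM, which binds all pro-survival members and can activate BAX. It had 8.17, 9.42 and 7.79 CPM in shEZH2#1, 9.44, 9.23 and 9.56 CPM in shEZH2#3 and 7.83, 9.49 and 6.52 CPM in shluc. The log2 fold changes were 0.09 ± 0.19 with shEZH2#1 (adjusted p = 0.776) and 0.24 ± 0.18 for shEZH2#3 (adjusted p = 0.287). The correction gave 0.37 ± 0.14 (adjusted p = 0.0821) with shEZH2#1 and a call with shEZH2#3, 0.63 ± 0.14 (adjusted p = 0.00458). BCL2L11 shares 727 exonic bases with the noncoding gene MIR4435-2HG on the opposite strand, which averaged 17.9 CPM in shEZH2#1, 25.1 CPM in shEZH2#3, where 1 library had 42.3 CPM, and 13.8 CPM in shluc.

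Both effectors rose with both hairpins. BAX (ENSG00000087088, chromosome 19, 48954815 to 48961798, plus strand) moves from the cytosol to mitochondria when activated. It stood at 55.4, 64.5 and 74.2 CPM in shEZH2#1 libraries and 84.6, 69.4 and 67.3 CPM in shEZH2#3 libraries, against 37.3, 25 and 42.6 CPM in shluc libraries, so no shluc library reached the knockdown values. BAX rose 1.85-fold with shEZH2#1 (log2 fold change 0.89 ± 0.18, adjusted p = 0.00263) and 2.11-fold with shEZH2#3 (1.08 ± 0.18, adjusted p = 0.000187). The correction left 0.53 ± 0.11 with shEZH2#1 (adjusted p = 0.00407) and 0.51 ± 0.11 for shEZH2#3 (adjusted p = 0.00408). BAX thus kept its calls with a smaller and nearly equal size for the hairpins, which had a corrected log2 difference of 0.03 ± 0.11 (adjusted p = 0.891).

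BAK1 (ENSG00000030110, chromosome 6, 33572547 to 33580293, minus strand) sits in the mitochondrial membrane already before activation. Its libraries had 328, 312 and 377 CPM with shEZH2#1 and 291, 271 and 247 CPM with shEZH2#3, against 178, 136 and 187 CPM in shluc. The 3 groups did not overlap, with shEZH2#1 highest and shluc lowest. BAK1 rose 2.03-fold with shEZH2#1 (log2 fold change 1.02 ± 0.16, adjusted p = 0.000355) and 1.62-fold with shEZH2#3 (0.69 ± 0.16, adjusted p = 0.00199). The correction left 0.75 ± 0.10 (adjusted p = 0.000179) with shEZH2#1 and 0.18 ± 0.10 (adjusted p = 0.183) with shEZH2#3, so the second call was lost. The difference between the hairpins was 0.33 ± 0.16 (adjusted p = 0.133), and 0.57 ± 0.10 (adjusted p = 0.000524) with the correction. BAK1 counts carried decimals in all libraries, and its processed pseudogene BAK1P1 was counted at 3.58 CPM on average, so some reads may have been assigned to either.

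The start regions of the risers are shown because these genes moved together. The promoter table from RefSeq (GRCh38.p14, 250 bases before to 50 after a start) matched 8 members, and the entries of 5 risers and of BCL2L1 follow, 5′ to 3′ on the strand of the gene. Capitals mark each E-box (CACGTG), GC box (GGGCGG) and CCAAT box, searched on both strands, with motifs chosen after the sequences had been read; no copies of different motifs overlap in the sequences shown. BAX is at chr19:48954625-48954924, BBC3 at chr19:47232618-47232917, BAD at chr11:64284655-64284954, BMF at chr15:40108830-40109129, BAK1 at chr6:33580227-33580526 and BCL2L1 at chr20:31723914-31724213.
BAX: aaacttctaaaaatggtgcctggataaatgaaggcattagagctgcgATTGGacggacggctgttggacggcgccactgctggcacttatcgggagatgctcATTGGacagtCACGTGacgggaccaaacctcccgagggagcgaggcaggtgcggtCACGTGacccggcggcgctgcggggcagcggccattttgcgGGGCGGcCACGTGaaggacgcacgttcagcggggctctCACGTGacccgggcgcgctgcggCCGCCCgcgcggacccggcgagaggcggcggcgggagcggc
BBC3: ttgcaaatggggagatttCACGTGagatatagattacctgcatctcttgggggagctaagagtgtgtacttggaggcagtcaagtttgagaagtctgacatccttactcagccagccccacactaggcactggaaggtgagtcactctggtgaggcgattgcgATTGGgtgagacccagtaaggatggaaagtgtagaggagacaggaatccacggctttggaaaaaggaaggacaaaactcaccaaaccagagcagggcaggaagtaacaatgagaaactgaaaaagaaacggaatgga
BAD: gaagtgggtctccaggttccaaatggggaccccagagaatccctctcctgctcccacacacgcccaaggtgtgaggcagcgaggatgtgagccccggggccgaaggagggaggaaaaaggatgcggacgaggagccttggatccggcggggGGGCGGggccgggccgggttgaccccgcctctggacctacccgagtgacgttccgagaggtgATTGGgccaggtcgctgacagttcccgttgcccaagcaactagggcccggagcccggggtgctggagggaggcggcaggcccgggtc
BMF: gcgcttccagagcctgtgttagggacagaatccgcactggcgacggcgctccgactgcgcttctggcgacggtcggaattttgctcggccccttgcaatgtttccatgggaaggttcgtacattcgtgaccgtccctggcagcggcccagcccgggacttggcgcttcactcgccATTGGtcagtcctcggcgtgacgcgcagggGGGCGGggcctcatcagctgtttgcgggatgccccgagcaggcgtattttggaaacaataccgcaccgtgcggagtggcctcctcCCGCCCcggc
BAK1: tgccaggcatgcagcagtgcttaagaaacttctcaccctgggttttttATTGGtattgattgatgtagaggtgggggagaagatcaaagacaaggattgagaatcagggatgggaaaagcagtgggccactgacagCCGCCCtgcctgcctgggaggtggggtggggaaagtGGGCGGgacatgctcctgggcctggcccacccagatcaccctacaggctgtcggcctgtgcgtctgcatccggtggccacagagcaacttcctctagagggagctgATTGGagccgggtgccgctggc
BCL2L1: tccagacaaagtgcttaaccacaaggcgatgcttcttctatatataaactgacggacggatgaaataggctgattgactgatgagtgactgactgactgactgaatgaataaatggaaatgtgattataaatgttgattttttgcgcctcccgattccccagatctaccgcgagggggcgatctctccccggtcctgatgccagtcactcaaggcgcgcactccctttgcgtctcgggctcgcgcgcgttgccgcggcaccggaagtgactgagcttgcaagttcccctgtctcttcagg

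The BAX region holds 4 E-boxes and that of BBC3 holds 1, while the other 4 regions shown hold none; 7.3% of the 35116 promoters of the table have a match. A CCAAT box stood in each of the 5 riser regions, was not found in the BCL2L1 region shown, and is present in 34.6% of all promoters, and a GC box stood in those of BAX, BAD, BMF and BAK1, with 45% of all promoters holding one. BAD, BMF and BCL2L1 each have another start in the table: that of BMF holds none of the motifs, that of BAD the same counts, and that of BCL2L1 a single GC box. The regions of the members that passed with neither hairpin hold GC boxes too, 4 in PMAIP1 and 3 in BCL2L11, the second with a CCAAT box. In GC content the 6 regions shown span 48% for BBC3 to 68.3% for BAD, around the table's median of 58.7%, while those of PMAIP1 (71.3%) and BCL2L11 (74.7%) are richer. BBC3, whose transcript is the most GC-rich of the family, therefore has the least GC-rich start region of the 8 members matched. Matches describe letters only and show no binding.

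**Figure D2:**
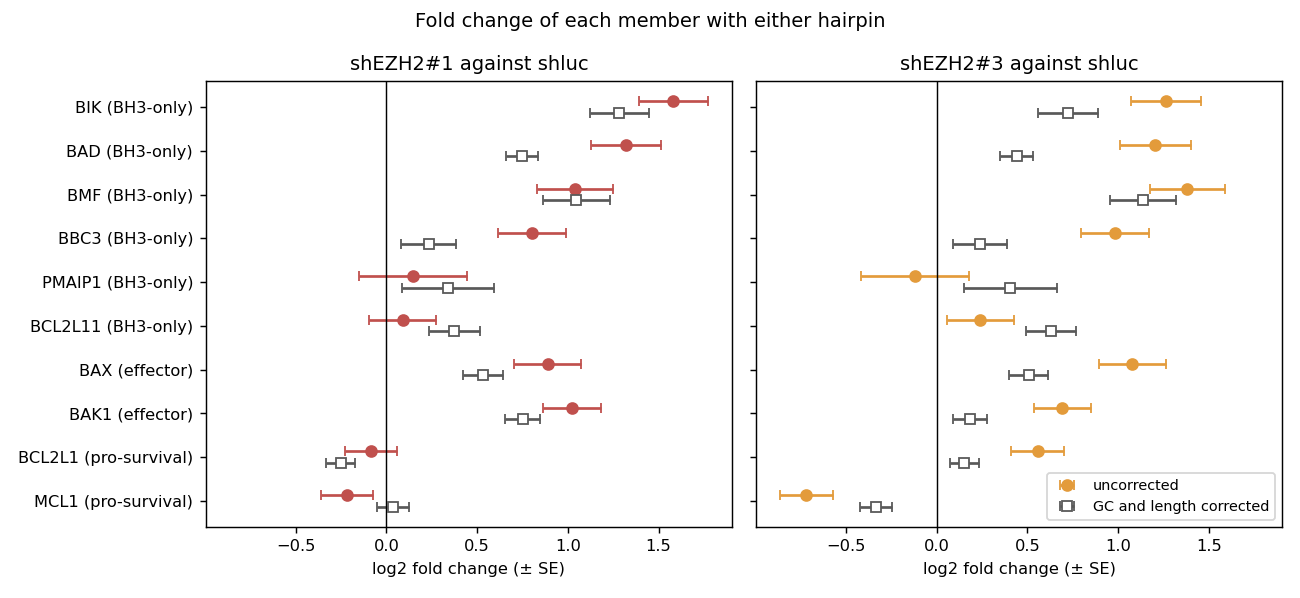
Log2 fold change (± SE) of each member with shEZH2#1 (left) and shEZH2#3 (right) against shluc, without (filled circles) and with (open squares) the GC and length correction. BIK, BAD, BMF and BAX stay right of 0 in both panels under both fits, while the BBC3 values shrink to 0.23 and 0.24 and MCL1 is lower in the right panel.

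Between the hairpins, both pro-survival members and no other member were called without the correction, as were 25% of all tested genes. BIK, BMF and BAK1 did not pass this test (edgeR adjusted p = 0.221, 0.229 and 0.133), though the libraries of the hairpins did not overlap for them. The share of all tested genes set apart in this way was not computed. BCL2L1 (ENSG00000171552, chromosome 20, 31664452 to 31723989, minus strand) encodes BCL-XL, and a short splice form with the opposite activity is not told apart in gene counts. It had 222, 229 and 255 CPM in shEZH2#1 libraries and 365, 380 and 355 CPM in shEZH2#3 libraries, against 280, 229 and 240 CPM in shluc libraries. Every shEZH2#3 library was above the other 6, and shEZH2#1 overlapped shluc. The log2 fold change was -0.09 ± 0.15 (adjusted p = 0.726) with shEZH2#1 and 0.56 ± 0.15 (adjusted p = 0.00519) with shEZH2#3, and the hairpins differed by -0.64 ± 0.15 (adjusted p = 0.00327). The correction changed the calls against shluc, to -0.25 ± 0.08 (adjusted p = 0.0448) with shEZH2#1 and 0.15 ± 0.08 (adjusted p = 0.199) with shEZH2#3. The call with shEZH2#1 was lost on GC content alone (adjusted p = 0.0867), without shluc replicate 2 (adjusted p = 0.113) and with the replicate block (adjusted p = 0.077). The difference between the hairpins remained, at -0.41 ± 0.08 (adjusted p = 0.00204).

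MCL1 (ENSG00000143384, chromosome 1, 150574551 to 150579738, minus strand) encodes a short-lived pro-survival protein. Its values were 73.2, 64.3 and 65.5 CPM in shEZH2#1 libraries and 45.7, 50.8 and 46.9 CPM in shEZH2#3 libraries, against 71.5, 90.2 and 74.2 CPM in shluc libraries. All shEZH2#3 libraries were below the rest, while shEZH2#1 reached into the shluc range. MCL1 fell by 0.72 on the log2 scale with shEZH2#3 (SE 0.15, adjusted p = 0.000747) and had -0.22 ± 0.14 (adjusted p = 0.306) with shEZH2#1. The corrected values were -0.33 ± 0.09 with shEZH2#3 (adjusted p = 0.0136) and 0.03 ± 0.09 for shEZH2#1 (adjusted p = 0.845). The hairpins differed by 0.50 ± 0.15 (adjusted p = 0.0163), or 0.37 ± 0.09 (adjusted p = 0.00666) after the correction. Between the hairpins 2 of 10 members were called, MCL1 higher and BCL2L1 lower in shEZH2#1, a share below the 25% of all tested genes called (9.46% higher and 15.5% lower). With the correction BIK, BAD and BAK1 were called as well, all higher in shEZH2#1, which makes 5 of 10, against 27.9% of all tested genes (13.1% higher and 14.9% lower). The uncorrected MCL1 difference was no longer called without shEZH2#1 replicate 1 (0.45, adjusted p = 0.0699) or without shEZH2#3 replicate 3 (0.49, adjusted p = 0.0553).

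By mean level per kilobase of the longest transcript, the effectors, BAD and BCL2L1 led the family in every group. In shEZH2#1 the order began with BAK1 at 153 ± 15.3 CPM per kb (SD, n = 3) and BAD at 142 ± 10.4, which overlapped, and went on to BCL2L1 at 90.2 ± 6.58 and BAX at 47.6 ± 6.9. In shEZH2#3 BCL2L1 at 141 ± 4.81, BAD at 131 ± 19.4 and BAK1 at 122 ± 9.92 CPM per kb came first, and each overlapped its neighbour. In shluc BCL2L1 led with 95.6 ± 10.3 CPM per kb, apart from BAK1 at 75.4 ± 12.3, which overlapped BAD at 56.8 ± 17.5. There BAX came next at 25.7 ± 6.68 CPM per kb and overlapped MCL1 at 20 ± 2.57. BIK moved past MCL1: it had 19.9 ± 1.79 CPM per kb in shEZH2#1, overlapping MCL1 at 17.2 ± 1.23, and 16 ± 1.38 in shEZH2#3, where MCL1 stood lower at 12.2 ± 0.68, whereas in shluc BIK had 6.68 ± 1.74 and MCL1 20 ± 2.57. BBC3, BMF, BCL2L11 and PMAIP1 filled the last 4 places in all groups, at no more than 5.73 CPM per kb in any library. Transcript lengths here are those of the longest annotated form, so levels of genes with several forms are approximate. The levels are not corrected for GC content. BIK (56% GC) is richer in GC than MCL1 (45.1%), and the part of this in their order was not tested.

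**Figure D3:**
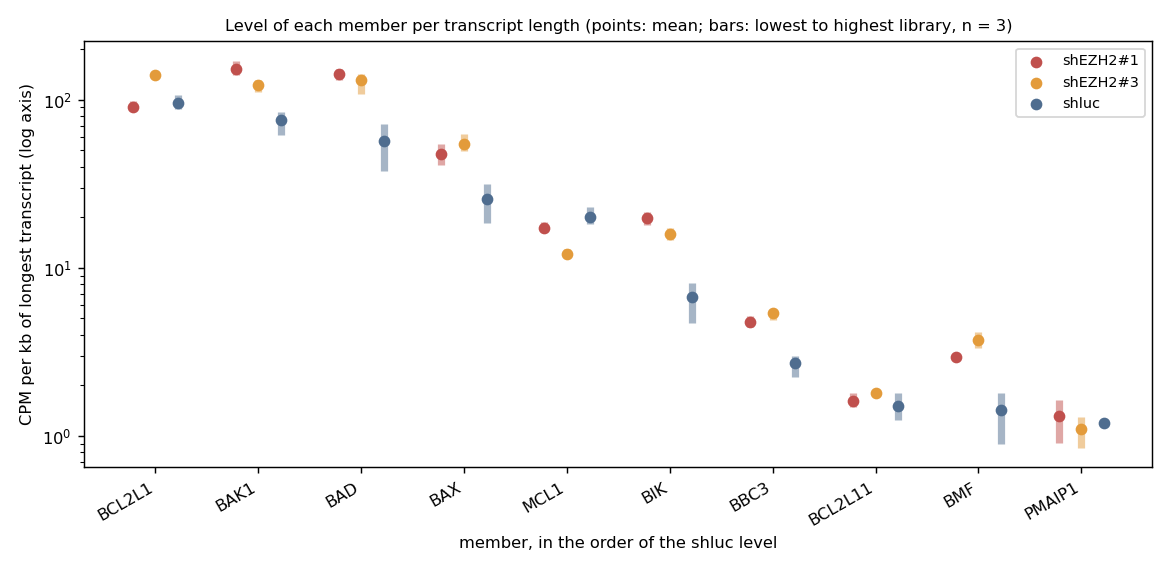
Level of each member in CPM per kb of its longest transcript (log axis), ordered by the shluc mean; points are group means and bars run from the lowest to the highest of 3 libraries. The members span about 2 orders of magnitude. The BIK mean passes that of MCL1 in shEZH2#1, where their ranges overlap, and in shEZH2#3, where they do not.

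Ratios between members within a library do not depend on how libraries are scaled, and they are given as descriptions without a test. The summed level per kb of the 6 BH3-only genes over that of BCL2L1 and MCL1 was 1.58, 1.64 and 1.6 in shEZH2#1 libraries and 1.12, 1.08 and 0.914 in shEZH2#3 libraries, against 0.598, 0.446 and 0.782 in shluc libraries. The 3 groups did not overlap, and BAD alone made up on average 82.2% of the BH3-only sum in shEZH2#1, 82.2% in shEZH2#3 and 80.1% in shluc. BAD (66.3% GC) is richer in GC than BCL2L1 (56.9%) and MCL1 (45.1%), and the part of this in the ratio was not tested. The summed effectors over the same pro-survival sum were 1.82, 1.81 and 1.97 in shEZH2#1 and 1.28, 1.09 and 1.09 in shEZH2#3, against 0.859, 0.721 and 1.05 in shluc, again with no overlap. With shEZH2#1 the pro-survival sum was 107 ± 5.98 CPM per kb, near the 116 ± 8.51 of shluc, while with shEZH2#3 it was 153 ± 5.38, mostly BCL2L1, whose rise with that hairpin was not called after the correction.

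Set against single pro-survival genes, the effectors gave contrasting pictures. BAX over BCL2L1 was 0.479 to 0.559 in shEZH2#1 and 0.351 to 0.445 in shEZH2#3, against 0.21 to 0.342 in shluc. BAK1 over BCL2L1 was 1.61 to 1.75 in shEZH2#1 and 0.821 to 0.94 in shEZH2#3, against 0.7 to 0.921 in shluc, so shEZH2#3 overlapped shluc in this ratio. Over MCL1 it was shEZH2#3 that stood highest for BAX, with 3.95 to 5.36, beside 2.19 to 3.28 in shEZH2#1 and 0.801 to 1.66 in shluc. For BAK1 over MCL1 the hairpins overlapped, with 7.96 to 10.2 in shEZH2#1 and 9.36 to 11.3 in shEZH2#3, against 2.68 to 4.48 in shluc. BCL2L1 over MCL1 was 11.3 to 12 in shEZH2#3, above the 4.57 to 5.86 of shEZH2#1 and the 3.83 to 5.9 of shluc, which overlapped each other. BAX, BAK1 and BCL2L1 are GC-rich (56.9 to 58.9%) and MCL1 is less so (45.1%), and the part of GC content in these ratios, which were computed on uncorrected counts, was not tested.

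**Figure D4:**
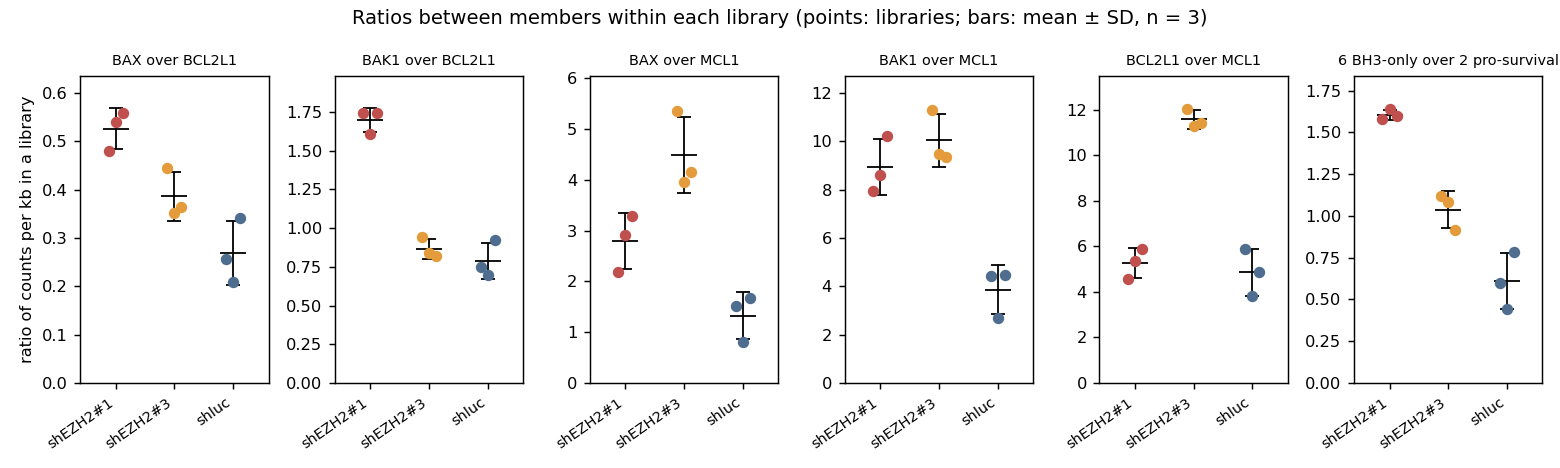
Ratios of counts per kb between members in each library (points) with mean and SD (n = 3 per group), each axis starting at 0. BAX and BAK1 over BCL2L1 are highest in shEZH2#1, while BAX over MCL1 and BCL2L1 over MCL1 are highest in shEZH2#3.

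Across the 10 members, the rank correlation between GC content and log2 fold change was 0.42 for shEZH2#1 and 0.52 for shEZH2#3, and across the 12949 tested genes with a GC value it was 0.47 for shEZH2#1 and 0.69 for shEZH2#3; genes are not independent replicates. The 4 members not called with shEZH2#1 include BCL2L1, whose GC content of 56.9% lies between those of BIK (56%) and BAX (58.9%). With shEZH2#3, the 7 members called higher had 54.8 to 69.7% GC, and MCL1, PMAIP1 and BCL2L11 had 37.2 to 45.7%. After the correction the calls were 5 higher and 1 lower with either hairpin, the lower one with shEZH2#1 being BCL2L1, whose call did not hold under the variants of the correction given above. Among all tested genes the corrected calls were 18.2% with shEZH2#1 (8.04% higher, 10.1% lower) and 24.5% with shEZH2#3 (12.4% higher, 12.1% lower). BIK, BAD, BMF and BAX were called higher with both after the correction and no member lower with both, beside 2.6% and 3.28% of all tested genes, and the corrected median over the members was 0.45 with shEZH2#1 and 0.42 with shEZH2#3, beside -0.01 for all tested genes with each hairpin. The part of GC content in the uncorrected fold changes was not separated from that of the hairpins beyond this correction, since the trend and the groups go together.

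**Figure D5:**
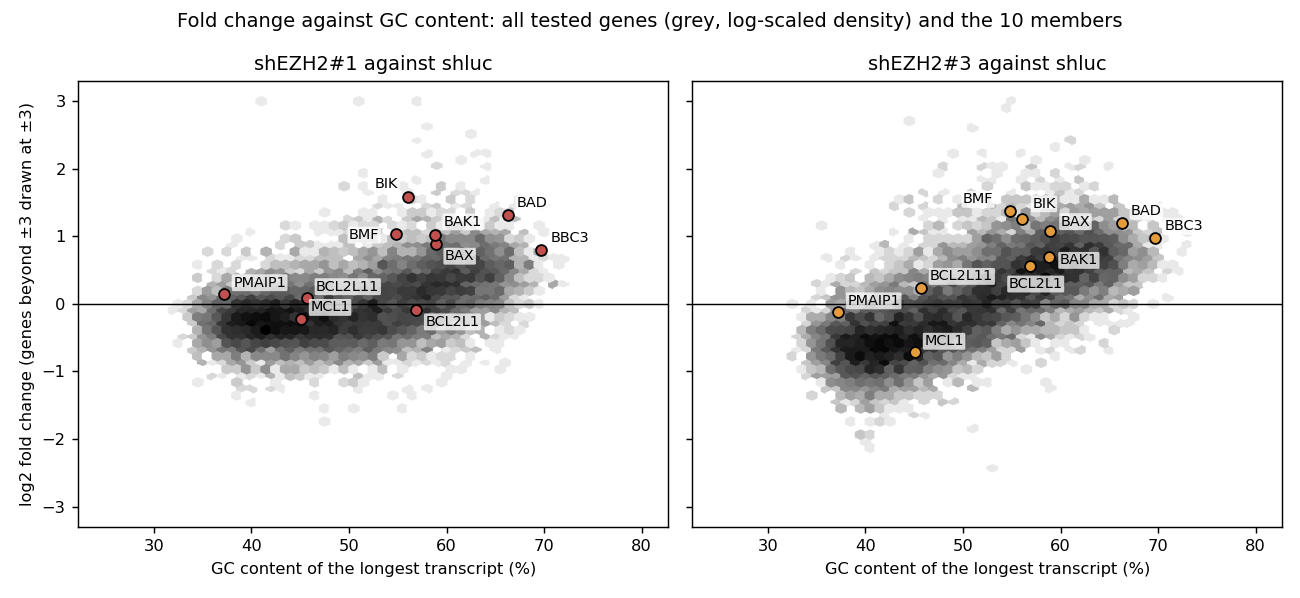
Log2 fold change against GC content of the longest transcript for all tested genes (grey, log-scaled density) and the 10 members (coloured points), with shEZH2#1 left and shEZH2#3 right. BIK, BMF, BAD, BAX and BAK1 lie on the upper side of the grey cloud at their GC content with shEZH2#1, and BCL2L1 lies on its lower side there.

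Genes outside the members are given by list, and their counts stand beside the shares of all tested genes called, 11.2% higher and 7.89% lower with shEZH2#1 and 24.4% higher and 19.8% lower with shEZH2#3. Under the GC and length correction the shares were 8.04% higher and 10.1% lower with shEZH2#1, and 12.4% and 12.1% with shEZH2#3. Of 13 other BCL2 family genes 10 were tested, and BOK, a BAX-like member, was the 1 called with either hairpin, at 91 CPM in shEZH2#1 and 111 CPM in shEZH2#3 against 54.9 CPM in shluc (0.73 ± 0.17 with shEZH2#1, adjusted p = 0.00597, and 1.02 ± 0.17 for shEZH2#3, adjusted p = 0.00017). The correction left BOK called with shEZH2#3 (0.39, adjusted p = 0.0159) and not with shEZH2#1 (0.29, adjusted p = 0.0802). Other genes of the list were called only with the correction: HRK, a BH3-only gene, higher with shEZH2#1 (1.14, adjusted p = 0.0371), and with shEZH2#3 BNIP3L higher (0.60, adjusted p = 0.00422) and BCL2L12 lower (-0.40, adjusted p = 0.0135). BCL2 itself was scarce, between 0.437 and 1.1 CPM in all libraries, and BCL2A1, BCL2L10 and BCL2L14 were at 0 throughout. The median log2 fold changes of the 10 tested genes were 0.06 with shEZH2#1 and 0.14 with shEZH2#3.

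Downstream of the mitochondria, 14 apoptosome and caspase genes had median log2 fold changes of -0.36 with shEZH2#1 and -0.30 with shEZH2#3. Called with shEZH2#1 were ENDOG, higher, and CASP9, VDAC1 and VDAC2, lower, which is 1 and 3 of 14. Called with shEZH2#3 were CASP2, CASP9 and ENDOG, higher, and among others VDAC3, AIFM1 and CYCS, lower. Corrected calls of the 14 were 1 higher and 3 lower with shEZH2#1, and 2 higher and 2 lower with shEZH2#3. ENDOG, a mitochondrial nuclease, had 1.10 ± 0.18 (adjusted p = 0.000492) with shEZH2#1 and 0.73 ± 0.18 (adjusted p = 0.0032) with shEZH2#3, and after the correction it was called with shEZH2#1 (adjusted p = 0.00166) but not with shEZH2#3 (adjusted p = 0.733). CASP9, the caspase that the apoptosome activates, took opposite directions. It had 50.6, 48.9 and 58.7 CPM in shEZH2#1 libraries and 207, 246 and 271 CPM in shEZH2#3 libraries, against 109, 80 and 94.2 CPM in shluc libraries, with no overlap between groups. Its log2 fold changes were -0.84 ± 0.16 with shEZH2#1 (adjusted p = 0.00147) and 1.35 ± 0.16 for shEZH2#3 (adjusted p = 9.99e-06). Both calls remained after the correction, with -0.77 for shEZH2#1 (adjusted p = 0.000897) and 1.23 for shEZH2#3 (adjusted p = 2.42e-05). CASP9 and the other genes of these lists that were called with a single hairpin were named after their values had been seen.

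Among 6 inhibitors of apoptosis, BIRC7 was called higher and BIRC5 and BIRC2 lower with shEZH2#1, and BIRC5 and BIRC6 were called lower with shEZH2#3 (medians -0.43 with shEZH2#1 and -0.35 with shEZH2#3). Corrected calls were 0 higher and 2 lower with each hairpin, so BIRC7 was no longer called higher. BIRC5 (survivin), which also serves in mitosis, averaged 138 CPM in shEZH2#1 and 154 CPM in shEZH2#3 against 217 CPM in shluc. Its log2 fold changes of -0.66 ± 0.15 with shEZH2#1 (adjusted p = 0.00393) and -0.50 ± 0.14 for shEZH2#3 (adjusted p = 0.00942) both remained called after the correction (adjusted p = 0.000573 for shEZH2#1 and 0.000416 for shEZH2#3).

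Of the death receptor pathway 12 of 14 genes were tested (medians 0.19 with shEZH2#1 and -0.21 with shEZH2#3). The adaptor TRADD and the decoy receptor gene TNFRSF10C were called higher with both hairpins, and no gene was called lower with shEZH2#1. With shEZH2#3 TNFRSF1A was also higher, and CFLAR, RIPK1, FADD and TNFRSF10D were lower. For this hairpin the corrected calls of the 12 genes were 0 higher and 2 lower, so TNFRSF1A was not among them. TRADD had 1.19 ± 0.19 with shEZH2#1 (adjusted p = 0.000469) and 0.71 ± 0.19 for shEZH2#3 (adjusted p = 0.00658). TNFRSF10C had 0.94 ± 0.24 with shEZH2#1 (adjusted p = 0.00925) and 0.70 ± 0.24 for shEZH2#3 (adjusted p = 0.0233). After the correction TRADD was called with shEZH2#1 (adjusted p = 0.00512) but not with shEZH2#3 (adjusted p = 0.883), and TNFRSF10C with neither (adjusted p = 0.0532 for shEZH2#1 and 0.6 for shEZH2#3).

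Among 19 regulators of the family (medians -0.29 with shEZH2#1 and -0.27 with shEZH2#3), E2F1 and AKT1 were the 2 called with shEZH2#1, both higher. Called higher with shEZH2#3 were, among others, E2F1, AKT1, TP73, PPP1R13L and PIM1, while DYNLL1, MAPK8, USP9X, MDM2 and TP53BP2 were called lower. Those 6 higher and 5 lower calls became 2 and 4 under the correction. With shEZH2#1 the corrected calls were 1 higher and 3 lower. E2F1, which can activate BH3-only genes, had 0.70 ± 0.17 with shEZH2#1 (adjusted p = 0.00718) and 0.83 ± 0.17 for shEZH2#3 (adjusted p = 0.00075). AKT1, a kinase that phosphorylates BAD, had 0.52 ± 0.15 with shEZH2#1 (adjusted p = 0.0239) and 0.64 ± 0.15 for shEZH2#3 (adjusted p = 0.00298). After the correction AKT1 passed with shEZH2#1 (adjusted p = 0.032) but not with shEZH2#3 (adjusted p = 0.207), and E2F1 passed with neither (adjusted p = 0.0528 for shEZH2#1 and 0.113 for shEZH2#3). Of 5 genes, EZH2, its relative EZH1, their complex partners EED and SUZ12, and the opposing demethylase gene KDM6A, EZH2 was called lower with both hairpins and EED with shEZH2#3 (medians -0.21 with shEZH2#1 and -0.55 with shEZH2#3).

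The genes whose pattern over the 9 libraries was most like that of a member were found by Pearson correlation of log2(CPM + 1). BIK was followed most closely by MARCHF2 (r = 0.992), FBXO44 and FBXW9 (both 0.987), and BAX by EIF3G (0.99), TEX264 (0.989) and FIBP (0.988). MCL1 was near to EIF5 (0.995) and CAPRIN1 (0.989). Among the members, BIK and BAK1 (0.97), BAD and BAK1, BAD and BIK, BAD and BAX, and BBC3 and BAX (all 0.96) ran closest. The 9 libraries form 3 groups and share the GC trend, so these values describe the group pattern and carry no test.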

How the data were processed

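Per the labels' protocols, poly(A) RNA was purified, fragmented and built into dUTP-stranded libraries. GRCh38 (hg38) is the build, and StringTie, HISAT2 and fastp are the tools, listed per the submitters' processing notes. How reads were counted, on which annotation and strand and with what rule for several matches, is not stated there. For each Ensembl gene the authors deposited an estimated count, not normalized, and 14.65 to 18.55% of nonzero values carry decimals. 1 count corresponded to 0.0473 to 0.0669 CPM.

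Counts were rounded and fitted with edgeR 4.0.16 in R 4.3.3 (TMM, filterByExpr, quasi-likelihood test, a mean per group over all 9 libraries; biological coefficient of variation 0.177). Adjusted p-values are Benjamini-Hochberg values over all 13252 tested genes, called below 0.05, and come from edgeR throughout the text. The SE of a log2 fold change is an approximation, the unshrunken fold change over the square root of F. The GC and length correction takes from each library a loess smooth (span 0.3) on both measures of the longest GENCODE 29 transcript, and its errors do not include those of the smooth. Only the uncorrected edgeR fit, for shEZH2#1 against shluc, was tested on simulated data, which had a common dispersion and no GC trend between groups. The corrected fit and the alternatives were not tested in this way. DESeq2 1.42.0 and limma 3.58.1 (voom) were alternatives, as were other scalings and filters, the replicate block, the fit of only the groups compared, the 2 most abundant genes left out, each library left out in turn, and a test against a minimum fold of 1.5. A correction on GC content alone, and one without shluc replicate 2, were added after the data were seen.

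The members, lists and alternatives were chosen with earlier results of these data known. Named were all members, EZH2, up to 3 genes per list called in the same direction with both hairpins (lowest larger adjusted p first), and the 3 genes most like the most changed member of each role. DCN, a fibroblast marker, met the list rule (log2 fold changes 1.15 and 0.72). The marker PECAM1 was not analysed here. Some genes that met these rules or belong to these lists are not reported here.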

Additional observations from a re-analysis of the deposited data

Results flagged for a closer look

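The effects of the hairpins differed, by the test of one hairpin against the other, for both pro-survival members. The log2 difference of shEZH2#1 from shEZH2#3 was -0.64 for BCL2L1 (edgeR adjusted p = 0.00327), with all 3 shEZH2#1 libraries below all 3 shEZH2#3 libraries. For MCL1 it was 0.50 (edgeR adjusted p = 0.0163), with all 3 shEZH2#1 libraries above. The MCL1 call was lost without shEZH2#1 replicate 1 (edgeR adjusted p = 0.0699) or without shEZH2#3 replicate 3 (edgeR adjusted p = 0.0553). Between the hairpins 25% of all tested genes were called.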

How the results depend on the processing

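The members called numbered 6 with shEZH2#1 and 8 with shEZH2#3 in each of the fits without 1 library, and 1 to 2 between the hairpins. No member that was called changed direction under any alternative. The counts over all genes without 1 library were 1159 to 3063 (2523 with all libraries) for shEZH2#1, 4251 to 5823 (5861) for shEZH2#3 and 1956 to 3941 (3311) between the hairpins. The lowest counts came without shEZH2#1 replicate 3, shluc replicate 2 and shEZH2#1 replicate 1, in that order, and the counts for shEZH2#1 were 1344 without shEZH2#1 replicate 2 and 1550 without shluc replicate 2. Against a minimum fold of 1.5, a stricter test by construction, 178, 961 and 497 genes and 2, 4 and 0 members passed for shEZH2#1, shEZH2#3 and between the hairpins. The 2 members with shEZH2#1 are BIK and BAD, to which BMF and BAX add with shEZH2#3. The GC and length correction gave 3241 genes for shEZH2#3 and 5 members between the hairpins, and on GC content alone 2574 and 4. With shluc replicate 2 left out as well it gave 1549 genes for shEZH2#1, 2358 for shEZH2#3 and 5 members between the hairpins. The cause was not tested. Upper quartile scaling turned the split of all calls with shEZH2#3 to 2421 higher and 3720 lower (from 3237 and 2624), with a median of all genes of -0.18, and between the hairpins to 2207 and 1404 (from 1254 and 2057). Without the 2 most abundant genes the split with shEZH2#1 was 1707 and 779, and with the GC and length correction 1066 and 1345 (from 1478 and 1045). BAK1 was called between the hairpins with upper quartile scaling (adjusted p = 0.0146) and in the fit of only those groups (adjusted p = 0.0367).

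No pairing by replicate number was seen: deviations correlated across genes by -0.22 to 0.08 for same-numbered libraries and by -0.22 to 0.27 for others. The check cannot exclude pairing, since the deviations also carry each library's GC trend. The fit with the replicate block called 2208, 5482 and 2938 genes and the same numbers of members, 6, 8 and 2. With the block and the GC and length correction 2995 genes were called for shEZH2#3 and 5 members between the hairpins, and BCL2L1, called lower with shEZH2#1 under the correction, was not called, nor was it on GC content alone or with shluc replicate 2 left out. Among the members depth limits PMAIP1 most, with 1.66 to 3.21 CPM and an SE of 0.30.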
